A study of Mus musculus with 4 samples.

Results

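The Prg4 locus of mouse hepatocytes was followed through liver regeneration by single-nucleus ATAC-Seq (scATAC-Seq), in which the transposase Tn5 cuts accessible DNA and a droplet barcode records the nucleus. The locus was taken as the gene Prg4 (ENSMUSG00000006014.16; mm10, GENCODE vM21, chromosome 1, 150449412 to 150466165, minus strand) with 20000 bp on either side, together with the promoter of its neighbour Tpr. After peaks that touch were joined across the 4 libraries, 15 merged regions lay in the Prg4 window and 1 at the Tpr promoter, or 16 of 200890 regions in all. Prg4 was chosen by the counts of these same libraries, which were higher at each time after surgery than before it, so its levels are a description and were not tested.

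The 4 libraries held hepatocytes of C57BL/6J mice on a normal diet, 10 to 12 weeks old per the labels, isolated by 2-step collagenase perfusion. PHx 0 h was undamaged liver. PHx 48 h, PHx 72 h and PHx 96 h came from mice killed 48, 72 and 96 h after partial hepatectomy (PHx), an operation that takes out much of the liver and that the remaining cells answer by regrowing the organ. Each time point had 1 library. The study describes male mice and a separate hepatocyte preparation at each of 0 and 48 h, and does not say whether animals were pooled at 72 and 96 h. Without replicates no p-value is given. All intervals below are exact 95% intervals that cover counting error within a library only, and library, animal and time point cannot be told apart.

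Barcodes with at least 1000 counts in peaks are called nuclei. They numbered 3977, 3892, 4256 and 3224 at 0, 48, 72 and 96 h, with a median of 26005, 11629, 4841 and 3681.5 counts. Peak lists differed by library, as the authors called them one library at a time, and covered 153.6, 179.0, 141.2 and 60.9 Mb. All 10 hepatocyte markers were covered by peaks in every library, with summed levels between 4583 and 6247 CPM (counts scaled to the same total of counts in peaks in every library). Markers of other liver cell types were at lower summed levels, from 229 to 487 CPM for 10 endothelial and from 24.7 to 117 for 9 Kupffer and other immune markers. The sums were from 80.1 to 163 CPM for 8 stellate, from 13.8 to 33.2 for 4 biliary and from 16.8 to 66.2 for 3 mesothelial markers. The lists differ in size and covered length, so their sums do not measure cell content. Of 9 Kupffer and other immune markers, 3, 6, 6 and 2 had a peak at 0, 48, 72 and 96 h. Csf1r, the receptor of a macrophage growth factor, had 21.2, 58.4, 72.4 and 38.1 CPM, and Ptprc, the gene of the common leukocyte antigen, had between 3.54 and 6.27 CPM. Cd79a, a B cell gene, had 44.5 CPM at 48 h and no peak in the other libraries, and so made up much of the highest sum. The Kupffer cell marker Clec4f had 7.16 and 6.88 CPM at 48 and 72 h and no peak at 0 and 96 h. Cd5l and Vsig4 had no peak in any library. Each pair of libraries shared between 681 and 882 barcodes. In the 0 h library, nuclei with a shared barcode had a median of 72341 counts, against 19442 for the other nuclei. Without shared barcodes, the Prg4 gene stood at 30.7, 157, 224 and 356 CPM at 0, 48, 72 and 96 h.

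Prg4 encodes proteoglycan 4, also called lubricin, a large secreted glycoprotein that coats the surfaces of joints and keeps them from sticking. The protein carries somatomedin B domains at one end and a hemopexin-like domain at the other, joined by a long mucin-like stretch of repeated, sugar-bearing sequence. Outside the joint it is made in the liver, and it can bind the hyaluronan receptor Cd44 and the Toll-like receptors Tlr2 and Tlr4. Tpr encodes a protein of the basket on the inner face of the nuclear pore.

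The genes lie tail to tail. Tpr runs on the plus strand from 150392838 to 150449935, so that its last exon overlaps that of Prg4, while its start lies outside the 20000 bp flank. The Tpr promoter region (150391770–150394597) also holds the start of Odr4, on the opposite strand. In the Prg4 window only 2 regions had a peak in every library. The 5′ region (150455523 to 150466950, 11428 bp) holds the Prg4 start and the upstream exons. The 3′ region (150444813 to 150454948, 10136 bp) holds the downstream Prg4 exons and the end of Tpr.

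The stretches below come from the 3′ region and from the gap between both regions, each read on the minus strand, the strand of Prg4, from GRCm38 (mm10). The first, chr1:150452611-150452910, is the middle of a small 0 h peak in an intron within the 3′ region. It held no match to any motif searched, and is shown because the long peaks of the 3′ region at 48, 72 and 96 h span it. The motifs, read on both strands, were AP-1 TGANTCA, CRE TGACGTCA, TEAD GGAATG, FOXA TGTTTAC or TATTTAC, CEBP TTGCNNAA, HNF4A CAAAGTCCA, HNF1 GTTAATNAT, NRF1 GCGCATGC, YY1 AAGATGGCG, SP and KLF CCCGCCC, ETS CCGGAAGT, the TATA box (TATAAA) and E-box CACGTG, which 0.407% to 15.6% of 101560 equally long windows at 0 h peaks hold.
Prg4 3′ intron window: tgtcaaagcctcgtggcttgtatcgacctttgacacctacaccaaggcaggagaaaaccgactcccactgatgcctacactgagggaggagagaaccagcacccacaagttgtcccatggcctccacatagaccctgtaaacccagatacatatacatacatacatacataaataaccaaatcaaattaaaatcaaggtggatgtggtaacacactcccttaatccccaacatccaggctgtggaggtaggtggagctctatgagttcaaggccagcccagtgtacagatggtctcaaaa
The second, chr1:150455370-150455519, is part of the stretch between both regions that no library covered. It belongs to the 2286 bp coding exon (150454052–150456337) of full-length Prg4 transcripts, and the capitals mark a 12-base word that occurs 23 times in the 574 bp gap.
Prg4 repeat exon: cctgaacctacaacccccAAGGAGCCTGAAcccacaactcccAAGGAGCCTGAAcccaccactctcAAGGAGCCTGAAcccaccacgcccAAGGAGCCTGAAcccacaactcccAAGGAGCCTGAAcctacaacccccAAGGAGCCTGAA

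The gap between the regions fell in this exon in each library after surgery. It was 927, 574 and 810 bp long at 48, 72 and 96 h. Within it, 95.6%, 92% and 99.3% of all 12-base words occurred more than once. In the equally long sequence on the Tpr side these shares were 21.1%, 59.2% and 23.2%, and on the Prg4 start side 12.4%, 59.7% and 32%. Whether reads could be placed in the repeat was not tested. The promoter window of Tpr in the RefSeq table (GRCm38, 150392588 to 150392887, plus strand) had a GC content of 58.0% and held a single motif match, CCCGCCC of the SP and KLF family, which 25.6% of 32851 promoter windows also hold. That table holds no window for Prg4, so no Prg4 promoter window was searched for motifs.

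Peaks covered 40.7% of the Prg4 gene at 0 h and 94.5%, 96.6% and 95.2% at 48, 72 and 96 h. At 0 h the gene held separate peaks: 1287 bp over the start (10.2 CPM), 2229 bp (4.88 CPM) and 2517 bp (12.8 CPM) in the 5′ region, and 3 peaks of 397 to 490 bp in the 3′ region with 0.83 to 1.01 CPM each. A further 0 h peak of the 3′ region, of 651 bp (1.26 CPM), lay in an intron of Tpr past the Prg4 end. At 48 h a single peak of 11219 bp covered the 5′ region, and a peak of 9056 bp most of the 3′ region. The corresponding peaks were 11221 and 10136 bp at 72 h and 10997 and 8584 bp at 96 h. Where 0 h had separate peaks, 48 h thus had a long block on either side of a gap within the repeat exon, and the 5′ block kept nearly its length in the later libraries. By length, the peaks over the 5′ and 3′ regions were 910th and 1307th of 158652 at 48 h, 387th and 476th of 164113 at 72 h, and 131st and 199th of 77580 at 96 h.

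**Figure D1:**
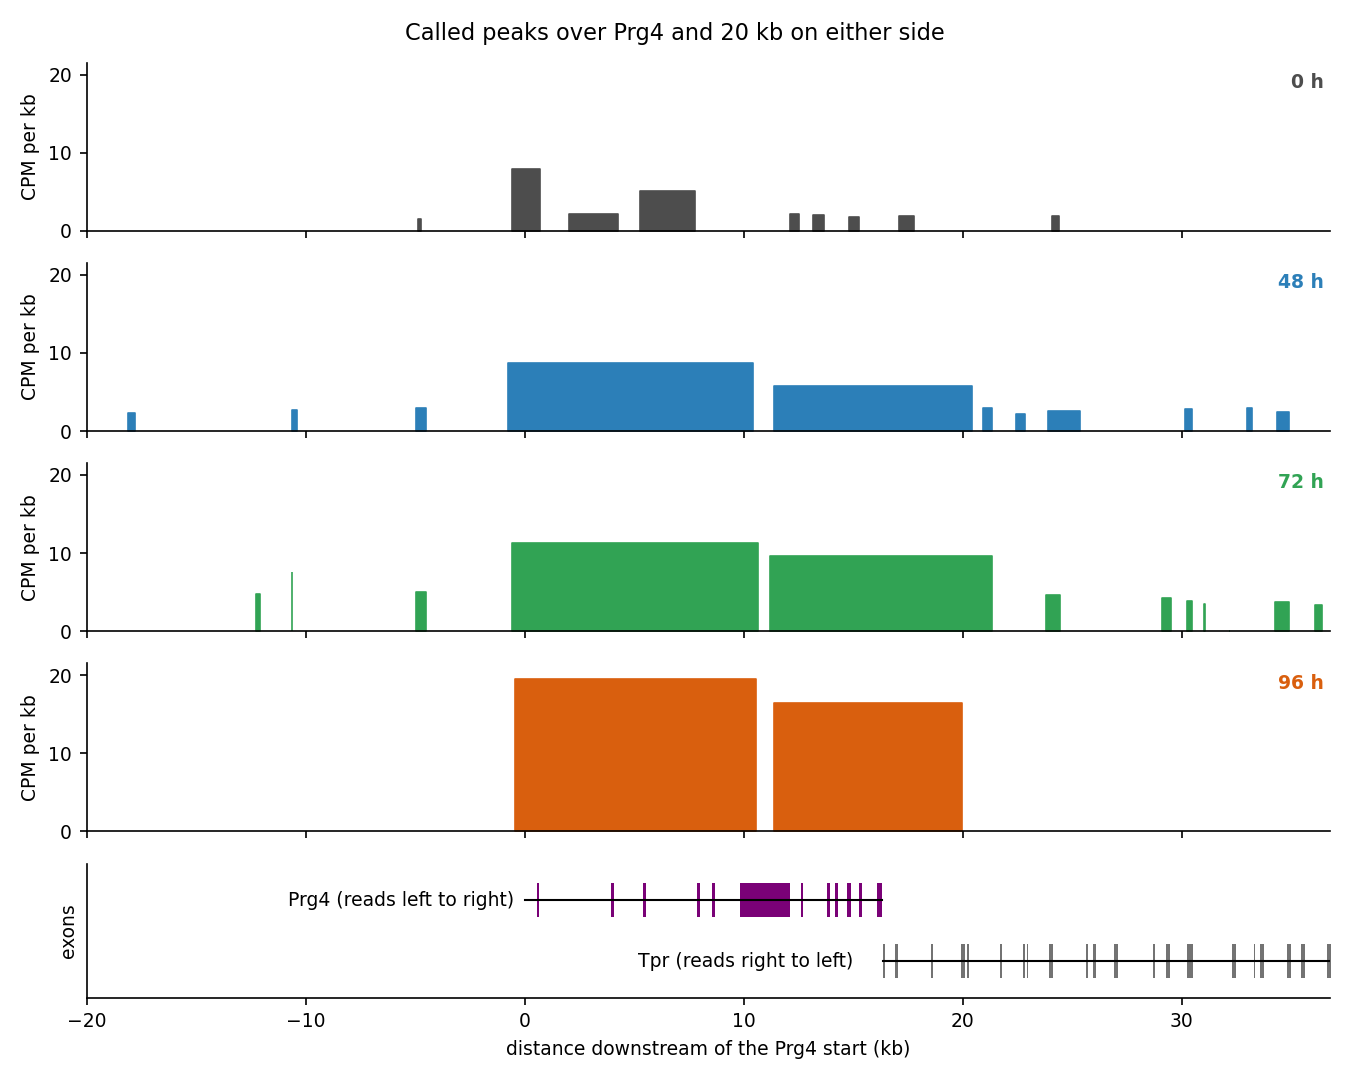
Peaks called in each library over Prg4 and 20 kb on either side, by distance downstream of the Prg4 start (kb). The width of a bar is the called length and its height the CPM per kilobase of peak. The lowest panel shows the exons of a full-length Prg4 transcript and of Tpr. Separate peaks at 0 h stand against 2 long blocks with a gap between them in the large exon at 48, 72 and 96 h.

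The other 13 regions of the window were small. Peaks were called in 2 of them at 0 h, 8 at 48 h, 10 at 72 h and none at 96 h, and none exceeded 3.82 CPM. The best covered was at 150440825 to 150442381, over 1 coding exon of Tpr and, for the most part, its flanking introns, with 0.593 CPM (0.425–0.806) at 0 h, 3.82 CPM (3.17–4.58) at 48 h and 3.15 CPM (2.24–4.31) at 72 h. An intergenic region at 150470676 to 150471149, upstream of Prg4, had 0.176, 1.29 and 2.35 CPM at 0, 48 and 72 h. Just outside the window, the nearest regions were called at 72 h alone, 176 bp beyond the Tpr side with 1.17 CPM and 1666 bp beyond the upstream side with 0.647 CPM. A missing peak is no measured zero, since counts exist only where a peak was called.

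In the 5′ region the level was 27.9 CPM (26.6–29.1) at 0 h, 97.5 CPM (94.1–101.0) at 48 h, 127 CPM (121–134) at 72 h and 215 CPM (204–226) at 96 h. The order followed the time points, and the counting intervals did not overlap. The log2 ratios to 0 h were 1.79, 2.17 and 2.92 (pseudocount 0.5 CPM). Covered lengths were 6033 bp at 0 h and 11219, 11221 and 10997 bp thereafter, so that the 3 later libraries can be compared over nearly the same DNA.

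The 3′ region had 3.95 CPM (3.50–4.45) at 0 h, 53.7 CPM (51.2–56.4) at 48 h, 97.3 CPM (91.8–103) at 72 h and 141 CPM (132–150) at 96 h. It was the lower of the pair in every library, with the higher ratios to 0 h. Its log2 ratios to 0 h were 3.61, 4.46 and 4.99, over covered lengths of 2012, 9457, 10136 and 8584 bp.

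Summed over all peaks that touch the gene or 2000 bp upstream, Prg4 had 30.6 CPM (29.3–31.9) at 0 h, 150.1 CPM (145.8–154.4) at 48 h, 224 CPM (216–233) at 72 h and 356 CPM (342.3–369.5) at 96 h. These are 4.91-fold (4.66–5.17), 7.34-fold (6.94–7.78) and 11.6-fold (11.0–12.3) the 0 h level. These sums rest on unlike stretches of DNA, because a peak was counted whole: at 48, 72 and 96 h the 3′ peak ran 3663, 4599 and 3199 bp past the Prg4 end into Tpr, while at 0 h no counted peak did. With both regions taken whole in every library, and so with the 0 h peak on the Tpr side, the level was 31.8, 151.2, 224 and 356 CPM, or 4.75-fold (4.52–5.0), 7.05-fold (6.67–7.46) and 11.2-fold (10.6–11.8) that at 0 h. Among 16432 protein-coding genes, 7.32%, 12.6% and 6.16% were at least 2-fold higher than at 0 h at 48, 72 and 96 h, and 1.86%, 5.98% and 10.4% at least 2-fold lower. Among 61362 regions with a peak in every library and a mean of at least 2 CPM, the shares at least 2-fold higher were 4.62%, 9.75% and 10.1%. Both Prg4 regions were past 2-fold at each time, which the choice of the gene fixed in part. By log2 ratio the 3′ region was 16th, 6th and 2nd of these regions at 48, 72 and 96 h, and the 5′ region 465th, 461st and 23rd.

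Length and counts have to be read together, since a longer peak gathers more counts. Peaks at 96 h were mostly shorter, and the median log2 ratio of covered length to 0 h over the 61362 regions was −0.85. Only 0.139% of regions were covered over at least 2 times their 0 h length at 96 h, against 4.24% at 48 h and 2.96% at 72 h. The 3′ region was covered over 4.27 times its 0 h length at 96 h (33rd by this measure) and the 5′ region over 1.82 times (96th). Per covered kilobase, the 3′ region stood at 1.97, 5.68, 9.60 and 16.4 CPM and the 5′ region at 4.62, 8.69, 11.3 and 19.5 CPM at 0, 48, 72 and 96 h. At 48 and 72 h, 0.274% and 5.16% of regions were at least 2-fold higher per covered kilobase. The 3′ region was past 2-fold at both times (log2 ratios 1.53 and 2.29), the 5′ region only at 72 h (0.91 and 1.29). At 96 h, 65.3% of all regions were past 2-fold per covered kilobase, and the values of 3.06 and 2.08 stand beside a median of 1.18.

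**Figure D2:**
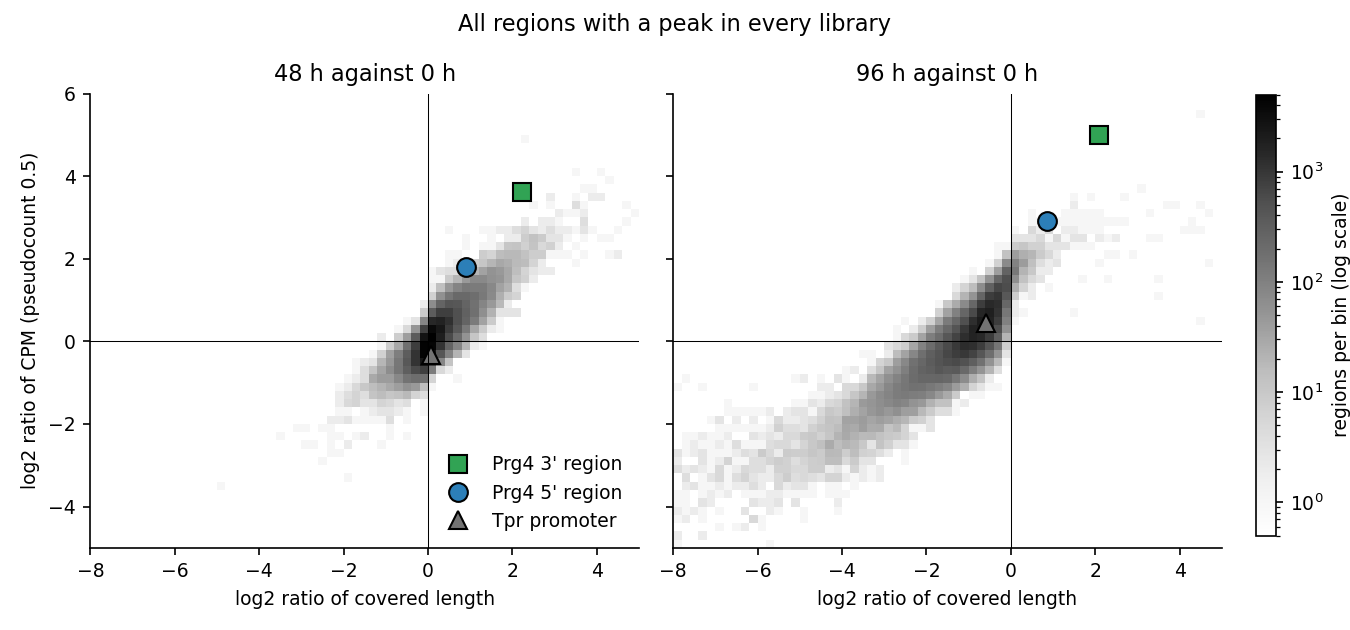
All regions with a peak in every library, by log2 ratio of covered length (horizontal) and of CPM (vertical) to 0 h, at 48 h (left) and 96 h (right). Grey marks the number of regions per bin on a log scale, and symbols the Prg4 regions and the Tpr promoter. The Prg4 3′ region lies at 2.23 and 3.61 at 48 h and at 2.09 and 4.99 at 96 h.

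How far Prg4 differed between the later libraries depended on what the counts were scaled to. As an alternative to all counts in peaks, they were scaled to 1021 regions whose single peak had nearly the same length in all libraries (longest at most 1.2 times the shortest), which held 2.19%, 2.21%, 2.59% and 3.70% of counts at 0, 48, 72 and 96 h. On that scale the gene was 4.87-fold (4.62–5.13), 6.19-fold (5.85–6.56) and 6.88-fold (6.49–7.29) its 0 h level. From 72 to 96 h the gene was 1.59-fold higher on the CPM scale and 1.11-fold (1.05–1.17) on the alternative scale. For the 3′ region the latter ratio was 1.02-fold (0.934–1.1), an interval that includes no difference. For the 5′ region it was 1.18-fold (1.1–1.27). The difference between 0 and 48 h was thus nearly the same on either scale, while most of that between 72 and 96 h was lost on the second.

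**Figure D3:**
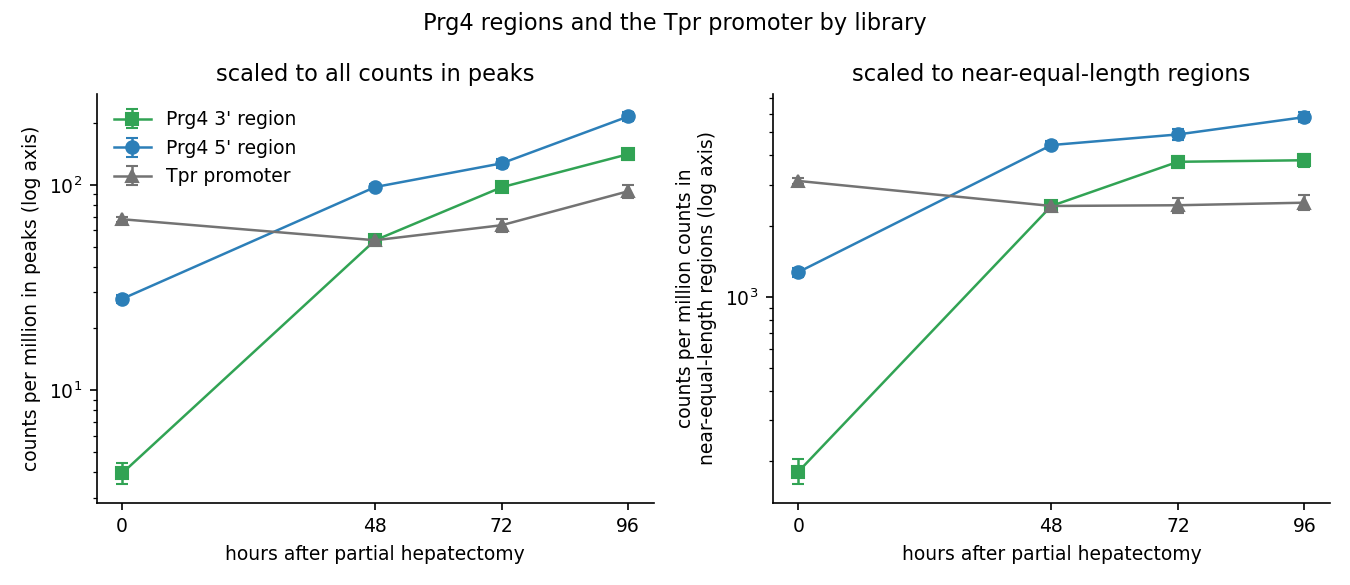
Level of the Prg4 3′ region, the Prg4 5′ region and the Tpr promoter by hours after surgery, on log axes, scaled to all counts in peaks (left) and to the 1021 regions of nearly equal length (right), as CPM on the left and, on the right, with the counts in those regions in place of all counts in peaks. Bars are exact 95% Poisson intervals. On the right, the Tpr promoter lies between 2434 and 3110 on that other scale in all libraries, and the 3′ region has nearly the same level at 72 and 96 h.

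The Tpr promoter served as the comparison within the locus. Its level was 68.0 CPM (66.0–70.0) at 0 h, 53.7 CPM (51.2–56.4) at 48 h, 63.6 CPM (59.2–68.2) at 72 h and 93 CPM (86.2–100.2) at 96 h, over 2675, 2828, 2715 and 1785 bp. It was lowest at 48 h and highest at 96 h, with no order by time. The log2 ratios to 0 h were −0.34, −0.10 and 0.45, and the direction at 96 h turned with the scaling: against the regions of nearly equal length the promoter was at 0.783, 0.788 and 0.808 times its 0 h level. The Prg4 gene had 0.449 counts (0.427–0.473) for each count of the Tpr promoter at 0 h, and 2.79 (2.64–2.96), 3.53 (3.26–3.82) and 3.83 (3.52–4.16) at 48, 72 and 96 h. This ratio within a library needs no scaling, but it is not matched for peak length. The Prg4 peaks had a summed length of 7394 bp in the 0 h library, against 19581 bp in that of 96 h. The promoter peak, in contrast, was shorter in the 96 h library. The 3′ region had 0.0582, 1.0, 1.53 and 1.51 counts for each promoter count, and the 5′ region 0.410, 1.81, 2.0 and 2.31.

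The whole Tpr gene summed to 92, 174, 233 and 266 CPM at 0, 48, 72 and 96 h, but that sum includes the 3′ region it shares with Prg4. Without this region Tpr had 88.0, 120, 136 and 125 CPM. The body of Tpr, without both the promoter and the shared region, had 20.1 CPM (19.0–21.1) at 0 h, 66.0 CPM (63.2–69.0) at 48 h, 72.4 CPM (67.7–77.3) at 72 h and 32.3 CPM (28.3–36.6) at 96 h. Peaks covered 3315, 18230, 15319 and 2006 bp of it, so its higher counts at 48 and 72 h came with longer peaks. Per covered kilobase it stood at 6.05, 3.62, 4.73 and 16.1 CPM at 0, 48, 72 and 96 h, lower than at 0 h in the libraries of 48 and 72 h and higher in that of 96 h, while both Prg4 regions were above their 0 h value in all 3.

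The share of open nuclei, those with at least 1 count in the peaks, depends on depth and on covered length. Length was not matched: the peaks of the Prg4 gene covered 7394, 20275, 21357 and 19581 bp at 0, 48, 72 and 96 h. To match depth, each nucleus was thinned to 1000 counts at random. The Prg4 gene was then open in 2.87% of nuclei (2.37–3.43) at 0 h, 12.2% (11.2–13.3) at 48 h, 14.8% (13.7–15.9) at 72 h and 22.3% (20.9–23.8) at 96 h. Without thinning the shares were 33.6%, 46.8%, 34.4% and 40.8%, the 0 h library being the deepest. Thinned to 300 counts in regions of nearly equal length, they were 26.4%, 61.0%, 65.0% and 68.1%, with 72 and 96 h closer together. Only 2798, 1732, 371 and 458 nuclei were deep enough for this. The 3′ region was open in 0.402%, 4.47%, 6.65% and 9.34% of nuclei thinned to 1000 counts, and the 5′ region in 2.51%, 8.94%, 8.95% and 15.5%. Between 48 and 72 h the share for the 5′ region differed by less than the counting interval. The Tpr promoter was open in 6.66%, 5.04%, 5.0% and 7.60%. As a check on the nuclei, Alb, the gene of the main plasma protein, was open in 36.7%, 47.9%, 36.5% and 38.7%, and Ttr, which encodes a thyroid hormone carrier, in 19.5%, 23.4%, 20.2% and 23.1%. At 0 h Prg4 was thus open in fewer nuclei than the Tpr promoter, and at 96 h in about as many as Ttr. Both comparisons are over unlike lengths. At 0 h Prg4 peaks covered 7394 bp and the promoter peak 2675 bp. At 96 h Prg4 peaks covered 19581 bp and those of Ttr 12119 bp.

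In nuclei of like depth from the start (2000 to 8000 counts, with 535, 1076, 2611 and 2007 nuclei), the Prg4 shares after thinning were 1.31%, 11.8%, 14.9% and 23.1%. Without shared barcodes they were 2.52%, 12.4%, 14.6% and 22.4% over nuclei of any depth. Before thinning, the most Prg4 counts in a single nucleus were 23, 42, 24 and 26 at 0, 48, 72 and 96 h, and 90% of nuclei had at most 4, 8, 4 and 5.

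Nuclei with at least as many counts in markers of other liver cell types as in hepatocyte markers made up 6.24%, 5.11%, 9.40% and 3.75% of the libraries. Prg4 was open in 0.403% (0.0102–2.23), 3.02% (1.11–6.45), 8.0% (5.54–11.1) and 12.4% (7.11–19.6) of them, and in 3.03% (2.50–3.63), 12.7% (11.7–13.8), 15.5% (14.3–16.6) and 22.7% (21.2–24.2) of the hepatocyte-led nuclei. The hepatocyte-led share was the higher in each library, with counting intervals apart. The nuclei led by other markers had a median of 3062.5, 1950, 1804 and 1333 counts before thinning.

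Hepatocytes differ along the lobule, from periportal cells near the incoming blood to pericentral cells near the outflow. Among hepatocyte-led nuclei, those with more periportal than pericentral marker counts had Prg4 open in 3.09% (2.52–3.75), 13.8% (12.6–15.1), 16.3% (15.1–17.7) and 23.99% (22.4–25.6) at 0, 48, 72 and 96 h. For those with more pericentral counts the shares were 2.70% (1.40–4.67), 7.16% (5.16–9.62), 11.9% (9.17–15.1) and 12.2% (8.45–16.9). The counting intervals were apart at 48 and 96 h and overlapped at 0 and 72 h. The pericentral set was small, with 444, 559, 487 and 254 nuclei. Split instead at the median pericentral share of each library, Prg4 was open in 3.49%, 14.5%, 16.4% and 25.2% of the nuclei at or below the median and in 2.58%, 11.0%, 14.3% and 20.1% of those above it, with intervals apart at 48 and 96 h again. These classes are ranges of a score, not cell types, and 67, 100, 286 and 206 nuclei lay within 1 count of the boundary of the first split. Cps1 and Ass1 are in both the hepatocyte and the periportal list, so the hepatocyte-led choice and the periportal call share counts. Summed pericentral markers were 1387, 1485, 1144 and 807 CPM at 0, 48, 72 and 96 h, so the first split need not hold like nuclei in each library.

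**Figure D4:**
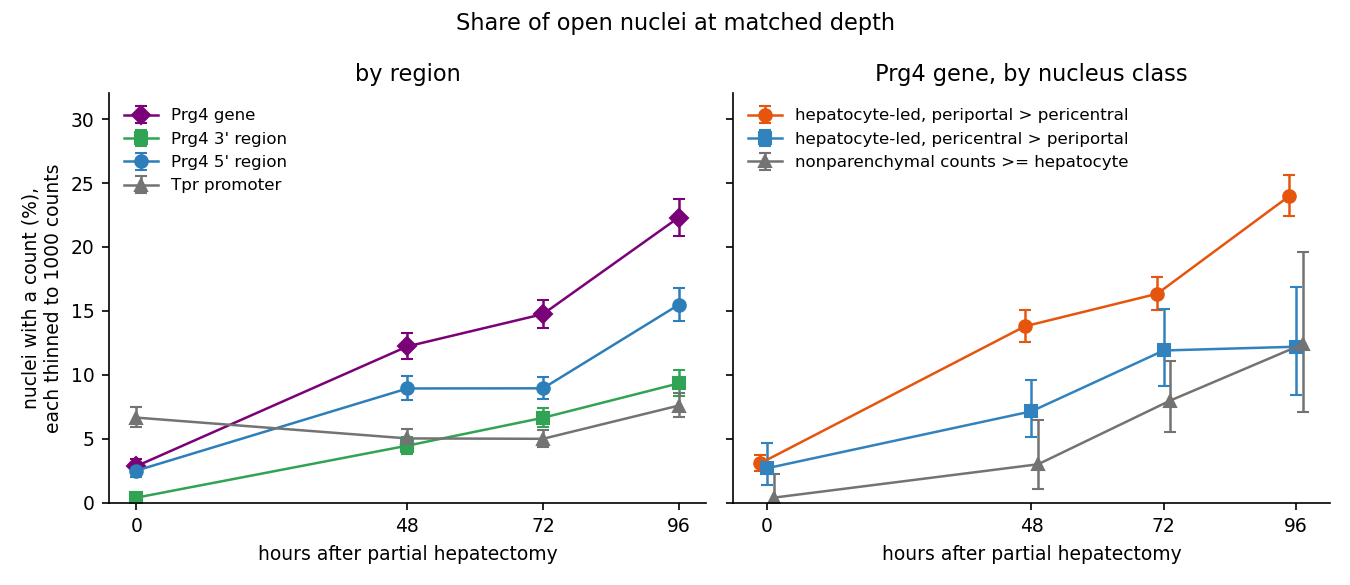
Share of nuclei (%) with at least 1 count after thinning to 1000 counts, by hours after surgery. Left, by region. Right, the Prg4 gene in hepatocyte-led nuclei with more periportal or more pericentral marker counts and in nuclei led by nonparenchymal markers. Bars are exact 95% binomial intervals, and points on the right are set apart sideways. At 96 h the periportal-leaning nuclei stand at 23.99% and the pericentral-leaning at 12.2%.

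Both regions were then looked at in the same nuclei. Among hepatocyte-led nuclei whose 5′ region was open after thinning, the 3′ region was also open in 10.8% (7.73–14.6) at 48 h, 13.8% (10.4–17.8) at 72 h and 13.3% (10.4–16.7) at 96 h. Where the 5′ region had no count, the shares were 4.45% (3.77–5.20), 6.50% (5.70–7.37) and 9.41% (8.32–10.6). At 0 h, none of 101 nuclei with an open 5′ region had a count in the 3′ region, which allows up to 3.59%. At 48 and 72 h the 3′ region was thus open more often in nuclei with an open 5′ region, with intervals apart, and at 96 h the intervals overlapped slightly.

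Of the protein-coding genes with a start within 500000 bp of Prg4, Ptgs2, which encodes cyclooxygenase 2, had no peak at 0 h and 1.18, 3.76 and 1.27 CPM thereafter, under the minimum mean of 2 CPM. Pdc, the gene of the retinal protein phosducin, had no peak in any library. Odr4 had 73.2, 62.4, 73.7 and 93 CPM, mostly from the promoter it shares with Tpr.

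Of 9 genes for receptors and ligands of lubricin and hyaluronan, 8 passed the minimum mean, and 1, 2 and 1 of them were at least 2-fold higher than at 0 h at 48, 72 and 96 h, beside 7.32%, 12.6% and 6.16% of all protein-coding genes. None of them was at least 2-fold lower at 48 and 72 h. At 96 h 2 were, Lyve1 and Cd44, but Cd44 had no peak there and was taken as 0 CPM. The share of all genes at least 2-fold lower at 96 h, 10.4%, includes genes without a peak, which were taken as 0 CPM. Cd44 had 1.19, 3.84 and 15 CPM at 0, 48 and 72 h and no peak at 96 h. Has3, a hyaluronan synthase, had 10.8, 20.4, 25.4 and 23.8 CPM. Lyve1, a hyaluronan receptor of endothelium, was lower at 96 h (5.76 CPM over 805 bp) than at 0 h (16.1 CPM over 3626 bp), though higher per covered kilobase, while summed endothelial markers were 229 CPM at 96 h and 415 CPM at 0 h. Has1, a further synthase, did not pass, with 0.622, 2.18 and 1.46 CPM and no peak at 96 h. Tlr2 and Tlr4 stayed within 2-fold, with log2 ratios of −0.28 to 0.35 and −0.03 to 0.70.

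Of 8 genes whose proteins have somatomedin B or hemopexin domains, 1 was at least 2-fold higher at each time (beside 7.32%, 12.6% and 6.16% of all genes), namely Hpx, which encodes the heme-binding plasma protein hemopexin. With so short a list, 1 gene is close to that background. Hpx had 169, 594, 507 and 865 CPM at 0, 48, 72 and 96 h (log2 ratios 1.81, 1.59 and 2.36) over 14898, 18276, 14845 and 12946 bp. Its counts at 72 and 96 h were higher over no more DNA than at 0 h. Of 4 genes for proteases that can cut lubricin, 2 passed, and Ctsb, the lysosomal cathepsin B, was lower at 96 h (log2 ratio −1.64), as were 10.4% of all genes by at least 2-fold. Its peaks covered 7526 bp at 96 h against 50195 bp at 0 h, and per covered kilobase it was the higher at 96 h. Of 14 genes for factors tied to Prg4 in joint tissue, 1 was at least 2-fold higher at each time, which is near or below the share of all genes. This was Nfatc1, a calcium-regulated transcription factor, with 50.9, 119, 202 and 116 CPM over 7257, 31560, 39891 and 4543 bp. The other 13 stayed within 2-fold, Creb5, Foxo1 and Tgfb1 among them.

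No gene matched Prg4 closely. Among 16431 genes, the smallest Euclidean distance over the 3 log2 ratios was 0.56, for Myo3a, an actin motor gene with 2.72, 16.0, 24.3 and 24.8 CPM. Fam189a2 (0.681, 3.82, 10.7 and 11.0 CPM), Nanog (no peak, then 1.18, 3.76 and 3.62), Olfr52 (no peak, then 2.47, 3.36 and 3.01) and Ppp1r3d (0.564, 4.40, 7.08 and 6.56) came next, at distances up to 0.79. Only 15 genes lay within a distance of 1, and none within 0.5. The distances of Nanog and Olfr52 rest on the pseudocount, since neither had a peak at 0 h, and say little of their likeness to Prg4. Those of Fam189a2 and Ppp1r3d rest on it in part, as their 0 h levels were close to the 0.5 CPM added. All 5 had a far lower level than Prg4, and levels at 72 and 96 h that were close to each other.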

How the data were processed

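The deposited count matrices hold whole numbers of transposase cut sites per peak and barcode, which the authors made with Cell Ranger ATAC 1.1.0 on mm10 (submitters' processing notes and file headers). Other deposited columns, peak positions and barcodes, came from the authors unchanged. Peaks were called per library, and both ends of a fragment count, so Poisson intervals used counts divided by 2. All peaks ended inside the GRCm38 chromosomes. Here, peaks were merged across libraries, and counts of nuclei (at least 1000 counts) were expressed as CPM, summed over whole peaks touching a gene or 2000 bp upstream (GENCODE vM21). Ratios used a pseudocount of 0.5 CPM, and comparisons over many features a mean of at least 2 CPM. No doublet caller was run; the deepest 5% of nuclei were left out as an alternative. Thinning drew counts without replacement. The code was tested on simulated data (Python 3, NumPy, SciPy). The members, gene lists and motifs were chosen with earlier results of these data known. Genes named are Prg4, Tpr, their neighbours within 500000 bp, the 5 nearest genes by log2 ratios and list members past 2-fold, and further list members named as examples. The splits by lobule position within hepatocyte-led nuclei and by library median, the scaling to the Tpr promoter, the depth band, the sum over both whole regions and the removal of shared barcodes were added after the data were seen.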

Additional observations from a re-analysis of the deposited data

How the results depend on the processing

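With 1 library per time point, no library could be left out and no interval covers biological spread. No paired analysis was possible because each group holds a single sample. The CPM ratios of the Prg4 gene to 0 h stayed above 1 in every alternative run, but sizes moved. The log2 ratios of the Prg4 gene to 0 h, 2.28, 2.86 and 3.52 at 48, 72 and 96 h, became 0.84, 1.35 and 2.14 per covered kilobase, 1.2, 1.94 and 2.51 with binarised counts, and 2.64, 2.97 and 3.09 relative to the Tpr promoter. Scaled to regions of nearly equal length they were 2.63 and 2.78 at 72 and 96 h, and at 96 h 3.41 when scaled to regions with a peak in every library and 3.46 with a pseudocount of 2 CPM. With both regions whole in every library they were 2.23, 2.80 and 3.46. Without barcodes found in more than 1 library they were 2.34, 2.85 and 3.52. The share of open nuclei at 0, 48, 72 and 96 h was 5.19%, 21.9%, 25.8% and 35.0% at 2000 counts, 7.2%, 27.9%, 32.2% and 44.2% at 3000 counts, and 33.6%, 46.8%, 34.4% and 40.8% without thinning, so that the gene's share was then lower at 72 h than at 48 h. Without thinning the 5′ region was open in 31.2%, 37.2%, 24.2% and 30.3%, below 0 h at 72 and 96 h. After thinning, the share for the whole Prg4 gene in the depth band of 2000 to 8000 counts was 1.31%, 11.8%, 14.9% and 23.1%. Thinned to 300 counts in regions of nearly equal length it was 26.4%, 61.0%, 65.0% and 68.1%, in 2798, 1732, 371 and 458 nuclei deep enough for it. Without shared barcodes it was 2.52%, 12.4%, 14.6% and 22.4%. The share of all merged regions at least 2-fold higher, 7.03%, 11.4% and 9.20% at 48, 72 and 96 h, was 17.9%, 21.3% and 3.51% without the filter on low values. By peaks near gene starts alone, 0 of the 5 genes nearest Prg4 remained.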
